A study of Mus musculus with 14 samples.

Results

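The locus of Lpp and Bcl6 is a stretch of 2 Mb on mouse chromosome 16, from position 23500001 to 25500000 of the genome build GRCm38.p6 (mm10). It was chosen by a measured value, the number of putative enhancers per window of 1 Mb, since the window from 24 to 25 Mb stood among the richest of the genome, and the 2 genes were then taken as its landmarks. All putative enhancers and all H3K4me3 peaks with their centre in the interval are members, which gave 82 of 32965 enhancers and 14 of 25431 peaks. High numbers of enhancers in the interval are therefore no finding and are given below as a description with no test. The same holds for short gaps, for shares near another enhancer and for large clusters, which go with high numbers.

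Trimethylated lysine 4 of histone H3 (H3K4me3) was measured by ChIP-seq in immortalised mouse embryo fibroblasts (iMEF) in which exon 4 of Ash2l was deleted and which live on a human ASH2L protein fused to FKBP. All libraries share this genotype, controls included, and the study's experiments were done mainly in a single clone, NG3. The compound dTAG, which links FKBP to an E3 ubiquitin ligase and so has the fusion protein degraded, was given for 30 min, 2 h, 4 h, 8 h or 16 h, and untreated cells were the control, with 2 replicates in each of these 6 groups. A further 2 libraries were inputs, 1 of untreated cells and 1 after 16 h. The 2 lists used here give positions, 1 of the peaks called over all H3K4me3 libraries and 1 of the regions with enhancer marks in control cells. They have 0 columns of values per sample, so no value below has a replicate error, the depth is unknown, and no group can be compared with another. The peak list had a peak at the start site of 9 of 9 fibroblast genes (Col1a1, Col1a2, Col3a1, Vim, Fn1, Pdgfra, Pdgfrb, Thy1 and S100a4) and of 0 of 5 B cell genes (Cd79a, Cd79b, Ms4a1, Pax5 and Ptprc). Over all protein-coding genes the share with a peak was 59.1%. These marker genes were chosen after the files were seen, and the enhancer list was not checked in this way.

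H3K4me3 sits on the promoters of genes that are active or ready for activity, and it is placed there by the COMPASS/KMT2 methyltransferase complexes, of which ASH2L is a core subunit. Monomethylated H3K4 together with acetylated lysine 27 of H3 and open chromatin marks active enhancers, and these 3 signals in control cells, away from promoters, defined the putative enhancers here. LPP (lipoma preferred partner) is a LIM domain protein of the zyxin family that resides at focal adhesions and stress fibres, binds VASP and alpha-actinin, and is found in fibroblasts and smooth muscle. BCL6 is a transcriptional repressor with a BTB domain and zinc fingers that recruits corepressors such as BCOR and NCOR1. It is best known from germinal centre B cells, where regulatory elements far upstream of the gene act on it, in the gap toward Lpp. A position near a gene does not say which gene an enhancer acts on, and no contact or expression data enter the values below.

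The start sites of the 2 genes differ in how many CpGs they hold and in whether a peak lies on them. The promoters that carry this difference are shown from 250 bases before to 50 bases after the start, in the direction of the gene, with CpGs in capitals, except that the second Lpp promoter ends at its start. The first, the second, the fourth and the fifth are RefSeq promoters (GRCm38.p6), and the third was read from the same genome at a GENCODE start. The first Lpp sequence belongs to the RefSeq start at 24393350. That start lies upstream of 24393540, the GENCODE start of Lpp-201, which is called the first Lpp start in the paragraphs on positions below.
Bcl6, main start, chr16:23988803-23989102, minus strand, under the widest peak of the locus: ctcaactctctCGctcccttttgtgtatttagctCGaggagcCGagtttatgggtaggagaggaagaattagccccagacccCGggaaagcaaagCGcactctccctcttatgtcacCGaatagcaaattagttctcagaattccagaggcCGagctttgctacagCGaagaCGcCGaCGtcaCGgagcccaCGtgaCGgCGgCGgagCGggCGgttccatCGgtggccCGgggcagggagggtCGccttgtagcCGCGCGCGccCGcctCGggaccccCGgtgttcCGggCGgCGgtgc
Lpp, first start, chr16:24393100-24393399, plus strand, under a peak of 2810 bp: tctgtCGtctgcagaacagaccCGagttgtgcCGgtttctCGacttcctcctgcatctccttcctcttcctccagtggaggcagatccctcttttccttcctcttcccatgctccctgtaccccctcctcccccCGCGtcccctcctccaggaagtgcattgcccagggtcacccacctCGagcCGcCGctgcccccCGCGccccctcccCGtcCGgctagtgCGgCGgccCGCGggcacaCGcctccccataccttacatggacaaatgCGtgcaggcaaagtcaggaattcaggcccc
Lpp, second start, chr16:24447841-24448090, plus strand, its end under a peak of 1228 bp: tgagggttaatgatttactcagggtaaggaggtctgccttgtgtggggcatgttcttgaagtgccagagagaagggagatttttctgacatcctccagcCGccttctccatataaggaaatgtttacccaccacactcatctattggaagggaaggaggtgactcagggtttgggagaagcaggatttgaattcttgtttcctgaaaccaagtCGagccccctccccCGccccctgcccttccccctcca
Lpp, the third start, chr16:24721605-24721904, plus strand, with no peak: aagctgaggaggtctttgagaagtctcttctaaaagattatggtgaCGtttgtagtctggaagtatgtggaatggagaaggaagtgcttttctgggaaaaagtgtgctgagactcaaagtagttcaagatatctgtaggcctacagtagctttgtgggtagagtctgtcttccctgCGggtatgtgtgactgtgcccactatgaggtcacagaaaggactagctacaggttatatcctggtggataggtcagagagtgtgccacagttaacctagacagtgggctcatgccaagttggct
Bcl6, internal start, chr16:23981234-23981533, minus strand, with no peak: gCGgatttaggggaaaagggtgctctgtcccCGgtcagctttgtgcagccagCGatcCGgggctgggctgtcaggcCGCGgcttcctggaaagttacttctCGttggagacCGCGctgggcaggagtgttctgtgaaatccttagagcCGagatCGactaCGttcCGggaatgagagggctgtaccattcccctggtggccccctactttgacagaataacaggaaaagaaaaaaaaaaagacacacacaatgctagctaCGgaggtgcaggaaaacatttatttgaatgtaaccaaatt
The main Bcl6 promoter held 31 CpGs and the first Lpp promoter 19, while the median over 32851 RefSeq promoters of 300 bases was 7. The second Lpp promoter, although a peak lies on its start, held 4 in the same 300 bases, and 31.4% of promoters had fewer. The third Lpp promoter held 2, fewer than most, since only 14.1% of promoters had a lower count. The internal Bcl6 promoter held 14 CpGs, more than 63.7% of promoters, and no peak lay within 1 kb of its start.

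Regions away from promoters follow. Printed first are the putative enhancer nearest to the Bcl6 peak, with the letters TTCNNNGAA of the BCL6 and STAT motif in capitals, and the 2 enhancers of up to 200 bp in Lpp that hold the AP-1 letters TGANTCA, in capitals. AP-1, the FOS and JUN dimer, is a factor of fibroblast enhancers. Each is whole, on the plus strand of GRCm38.p6, and was numbered from e01 to e82 in the order of positions.
Enhancer e06, upstream of Bcl6, chr16:23991412-23991496: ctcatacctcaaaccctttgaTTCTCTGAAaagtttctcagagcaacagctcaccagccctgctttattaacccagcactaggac
Enhancer e43, Lpp intron 5, chr16:24656810-24657000: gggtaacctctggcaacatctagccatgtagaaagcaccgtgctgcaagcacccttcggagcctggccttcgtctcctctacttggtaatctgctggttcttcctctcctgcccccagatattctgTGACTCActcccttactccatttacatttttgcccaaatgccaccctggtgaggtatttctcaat
Enhancer e45, Lpp intron 7, chr16:24696725-24696880: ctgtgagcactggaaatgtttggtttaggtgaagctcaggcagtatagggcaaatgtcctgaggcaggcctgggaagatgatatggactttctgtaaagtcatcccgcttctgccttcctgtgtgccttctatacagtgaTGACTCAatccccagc
Last come 3 H3K4me3 peaks over 1 kb from any annotated start, with CpGs in capitals, the 14 peaks being numbered from p01 to p14. They are 1 of a pair upstream of Sst and the 2 that lie farthest from a start.
Peak p04, between Sst and Rtp2, chr16:23898477-23898676: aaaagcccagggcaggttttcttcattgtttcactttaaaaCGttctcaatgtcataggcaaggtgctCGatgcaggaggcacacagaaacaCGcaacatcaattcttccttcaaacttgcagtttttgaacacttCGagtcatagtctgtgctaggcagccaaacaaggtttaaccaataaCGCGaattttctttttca
Peak p12, Lpp intron 3, chr16:24515569-24515814: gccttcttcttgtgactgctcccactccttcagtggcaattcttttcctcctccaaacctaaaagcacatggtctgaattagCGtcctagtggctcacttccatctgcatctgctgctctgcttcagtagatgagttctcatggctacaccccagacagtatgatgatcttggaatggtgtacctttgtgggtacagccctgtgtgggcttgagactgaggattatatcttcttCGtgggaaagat
Peak p13, inside the widest enhancer of the locus, chr16:25042340-25042576: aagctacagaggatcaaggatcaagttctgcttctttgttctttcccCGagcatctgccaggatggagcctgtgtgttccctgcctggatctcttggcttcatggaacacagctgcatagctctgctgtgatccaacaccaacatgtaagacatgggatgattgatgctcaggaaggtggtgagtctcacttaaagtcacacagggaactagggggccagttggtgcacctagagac
Peaks p12 and p13 held 2 and 1 CpGs, while p04 held 6 and its neighbour p03 held 7, each in 200 bp. Set against their base composition, the CpGs of p04 stood at 0.705 of those that chance gives, above the median of 0.642 for peaks at starts. Those of its neighbour p03 stood at 0.491, below that median, and those of p12 and p13 at 0.142 and 0.0661. The GC content of p04 was 41.5%, under the lower quartile of 52.6% for peaks at starts, so a few CpGs suffice for a high ratio.

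The locus was rich in putative enhancers and not in H3K4me3 peaks. It held 41 enhancers per Mb, beside 13.9 on all of chromosome 16 and 12.1 over all chromosomes. Peaks stood at 7 per Mb, beside 8.08 on chromosome 16 and 9.30 over all chromosomes. There were 5.86 enhancers for each peak, beside 1.30 over all chromosomes. Among 5378 windows of 2 Mb in steps of 0.5 Mb, 22 had more enhancers, and the median was 23 and the highest 109. By peaks, 2660 of these windows had more, with a median of 14, so the locus lay near the middle. The 2 Mb before it held 53 enhancers and 30 peaks, and the 2 Mb behind it 28 enhancers and 6 peaks.

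**Figure D1:**
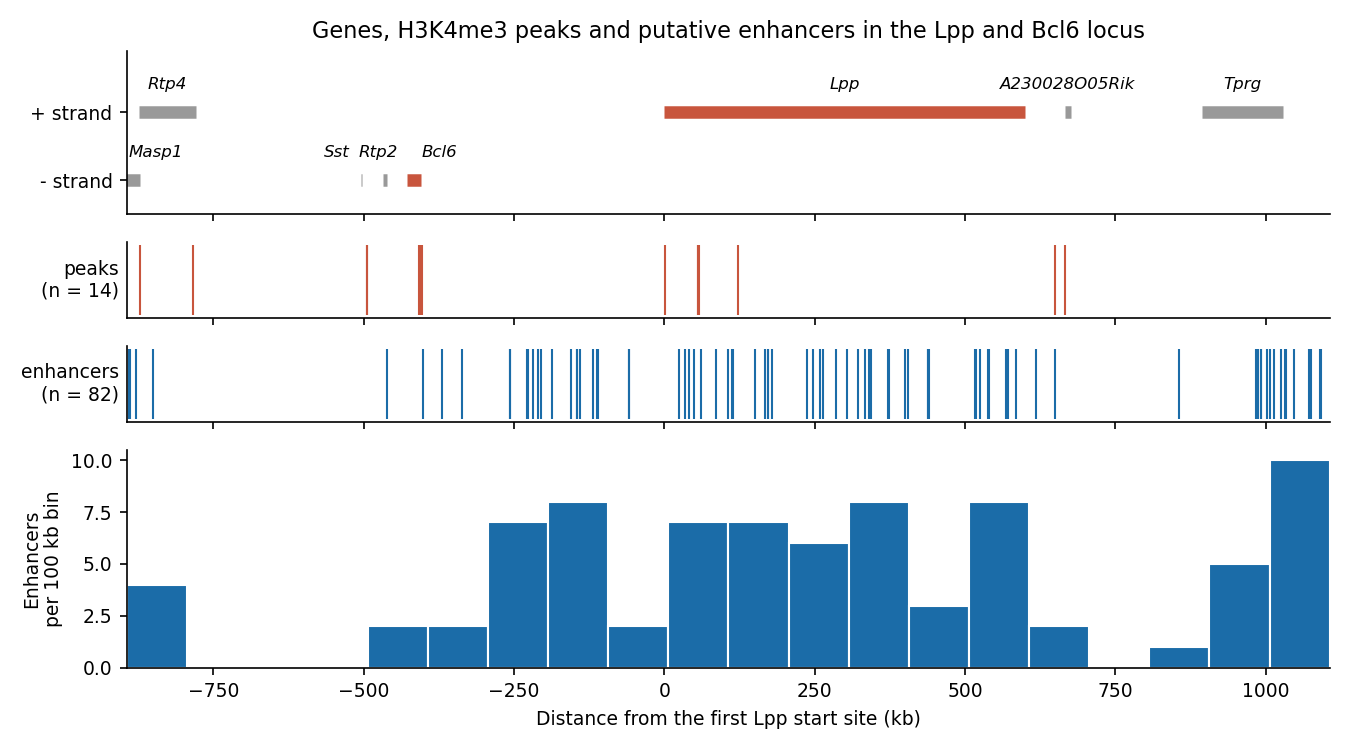
Map of the locus with positions in kb from the first Lpp start site. From top to bottom are the genes on each strand (Lpp and Bcl6 in red), the 14 H3K4me3 peaks, the 82 putative enhancers (1 line each) and the enhancers per bin of 100 kb. The enhancers form 4 groups, at Masp1, between Bcl6 and Lpp, through Lpp, and at and beyond Tprg, and 4 of 20 bins hold none.

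Along the interval the enhancers fell unevenly, as the map of genes, peaks and enhancers shows. The gene body of Lpp held 39 of the 82, or 6.51 per 100 kb. A further 20 lay in the gap of 404.7 kb between the Bcl6 start and the Lpp start, or 4.94 per 100 kb. Tprg held 8 in its gene body (5.90 per 100 kb), and the 77.7 kb beyond it 7 (9.01 per 100 kb). The gene body of Bcl6 held 0 in 23.8 kb. Between Rtp4, an interferon-induced gene, and Bcl6, where Sst (the hormone somatostatin) lies, a stretch of 350.8 kb had 1 enhancer. Between Lpp and Tprg there were 3 in 294.2 kb, and the 114.2 kb with the ends of Masp1, a protease of the complement system, and Rtp4 held 4. Bins of 100 kb ranged from 0 to 10 enhancers, and 9 of 20 bins held 5 or more.

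The edges of the interval cut through this pattern at one end. The last enhancer before it (23498429 to 23499092, 664 bp) lay 4.24 kb from the first inside (23503336 to 23503525, 190 bp), so a group around Masp1 is divided there. At the far end the last enhancer inside (25485404 to 25485604) was followed by a gap of 46.1 kb. The peaks next to the interval were farther off, at 23224661 to 23227112 (2452 bp) and at 26104936 to 26106334 (1399 bp).

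At the start sites, Lpp had 2 H3K4me3 peaks and Bcl6 had 1, where a peak counted when any base lay within 1 kb of a start. A peak by this rule was found at 59.1% of 21938 protein-coding genes. The Bcl6 peak, p06 (23986236 to 23989690), was 3455 bp wide, wider than 99.2% of the 17587 peaks centred within 1 kb of a start. Its GC content was 52.9%, and its CpG ratio, the CpGs observed over those that its C and G content gives by chance, was 0.769. The peak on the first Lpp start, p08 (24392686 to 24395495), was 2810 bp wide, wider than 97.8% of those peaks, with 58.9% GC and a CpG ratio of 0.567. The widest Lpp peak stood at 95.9% and the widest Bcl6 peak at 98.4% among the widest peaks of the coding genes that had one. Both peaks thus belong to the wide end of promoter peaks, whose median was 951 bp with quartiles of 513 and 1419 bp.

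The peak on the second Lpp start, p09 (24448050 to 24449277, 1228 bp), was of another composition. It lay 54.6 kb downstream of the first start, held 9 CpGs and had a CpG ratio of 0.121, under the lower quartile of 0.500 for promoter peaks. Its width was between the median and the upper quartile of promoter peaks. The coding transcripts from the first and the second start are Lpp-201 and Lpp-202. The next coding transcript, Lpp-203, starts at 24721855, and the nearest peak was 206041 bp away. A short transcript subject to nonsense-mediated decay, Lpp-206, starts at 24845175, 197165 bp from a peak. By the RefSeq models, 5 of 8 Lpp starts and 3 of 4 Bcl6 starts had a peak within 1 kb. Of the other Lpp starts by RefSeq, the one at 24565640 lay inside putative enhancer e37 (24565451 to 24565941), with no H3K4me3 peak within 1 kb.

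Both genes had further peaks beside the one on the start. At Bcl6, p05 (23984406 to 23985324, 919 bp) lay 911 bp downstream of p06, inside the gene, and p07 (23989871 to 23990250, 380 bp) lay 180 bp upstream of it, so that 3 peaks spanned 5845 bp around the start. At the second Lpp start, p10 (782 bp) and p11 (232 bp) followed p09 at gaps of 257 and 235 bp, and the 3 spanned 2734 bp. The first Lpp start had a single peak, and the next one lay 52.6 kb away. The lncRNA Lppos begins on the opposite strand within the same peak, p08, and the peak p06 also covers Gm37419, a model of 114 bp that is annotated as coding.

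**Figure D2:**
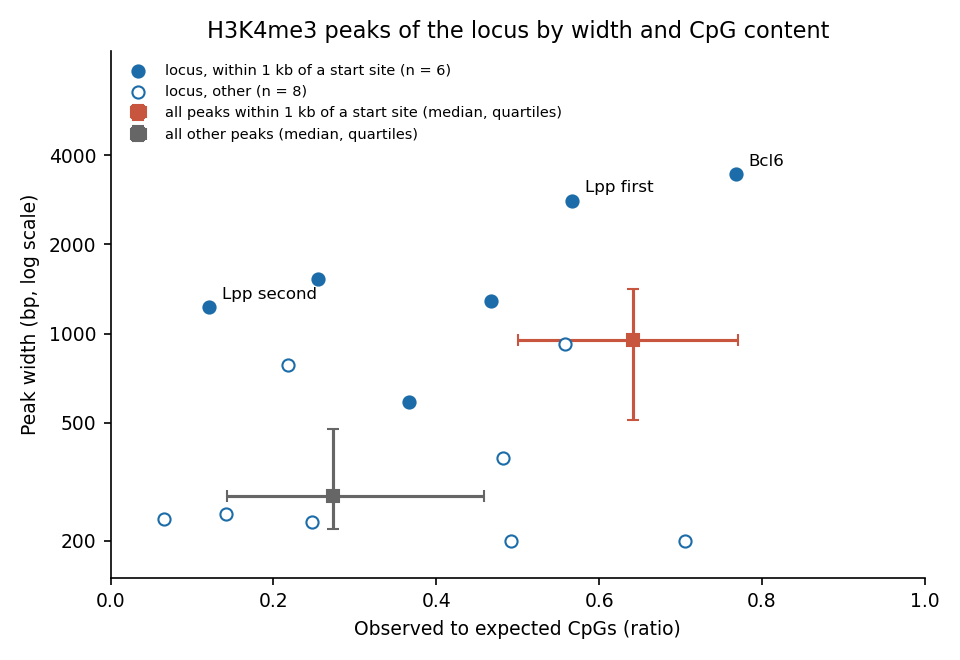
Width (log scale, bp) against the ratio of observed to expected CpGs for the 14 H3K4me3 peaks of the locus, filled where the centre is within 1 kb of a start site (6 peaks) and open elsewhere (8 peaks). Squares with bars give the median and quartiles over all peaks of each class. The Bcl6 peak (3455 bp, ratio 0.769) and the first Lpp peak (2810 bp, 0.567) sit above the upper quartile of width of promoter peaks, and the second Lpp peak (1228 bp, 0.121) lies far to the left of them.

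Over the locus, 6 of 14 peaks were centred within 1 kb of a start site, against 69.4% of all peaks. Beside the 3 named for Bcl6 and Lpp these were p01 (1532 bp) on starts of Masp1 and Rtp4, which lie on opposite strands, p02 (586 bp) on a second Rtp4 start, and p14 (1285 bp) on the start of the lncRNA A230028O05Rik. The other 8 ranged from 200 to 919 bp, and 4 of them were p05, p07, p10 and p11 beside the Bcl6 and Lpp peaks. The remaining 4 were p03 and p04, both of the shortest width of 200 bp and 125 bp apart upstream of Sst, p12 (246 bp) in Lpp intron 3, and p13 (237 bp). Sst itself, Rtp2 and Tprg had 0 peaks at their starts, and the nearest peak to the Tprg start was 226.8 kb away although 8 enhancers lay in the gene.

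Within Lpp, all 39 enhancers had their centre in an intron and 0 in an exon of the main transcript, Lpp-201, of which 97.4% is intron. Of its 12 introns, 10 held an enhancer. Introns 8 and 10 had 7 each, introns 3 and 7 had 5 each, introns 4 and 5 had 4 each, intron 1 had 3, intron 2 had 2, and introns 6 and 12 had 1 each. Intron 9 (24845218 to 24889789), 44.6 kb long, had 0, and so had intron 11, which is 5.19 kb long. Among introns of over 40 kb with an enhancer, the density ran from 4.87 per 100 kb in intron 3, the longest at 102.6 kb, to 8.55 in intron 10. Intron 2, of 13.9 kb, stood at 14.3 per 100 kb and also held 3 of the 5 peaks in the gene. A single enhancer touched an exon, e29 (24442734 to 24443761, 1028 bp), which covered all 110 bp of exon 2. The microRNA gene Mir28a lies in intron 8, and the enhancers e54, e55 and e56 were 3035, 3262 and 5528 bp from it.

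**Figure D3:**
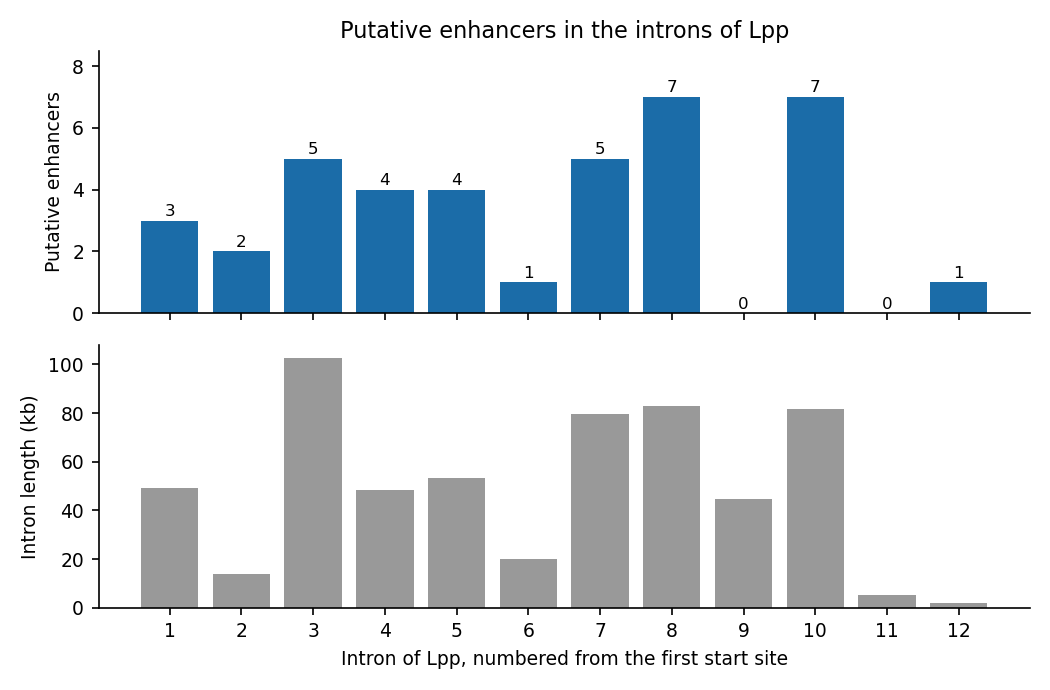
Putative enhancers in each of the 12 introns of Lpp-201 (upper bars, number above each) and the length of each intron in kb (lower bars). Introns 8 and 10 hold 7 each, and intron 9, at 44.6 kb, holds 0 between them.

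The enhancers near the start of Lpp were wider than those farther in. Between the first and the second start, 54.6 kb, there were 4 with widths from 350 to 1570 bp and a median of 1088 bp. From the second to the third start, 273.8 kb, there were 17 with a median of 364 bp and a highest width of 854 bp. From the third start to the end of the gene, 270.7 kb, there were 18 with a median of 307 bp and a highest width of 644 bp. The ranges overlap, since the narrowest of the first 4 was 350 bp. The density was close in all 3 stretches, at 7.33, 6.21 and 6.65 per 100 kb. Over the locus the median width was 404.5 bp (quartiles 250.2 and 582.5 bp), and over all enhancers it was 405 bp (265 and 653 bp). The share of at least 1000 bp was 6.10% (5 enhancers), and 10.3% over all. The widest were e66 (25041511 to 25043348, 1838 bp) behind Lpp, e28 (24434222 to 24435791, 1570 bp) in Lpp intron 1 and e16 (24205627 to 24206957, 1331 bp) in the gap toward Bcl6. Of the 5, 3 lay between 24417541 and 24443761, upstream of the second Lpp start.

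**Figure D4:**
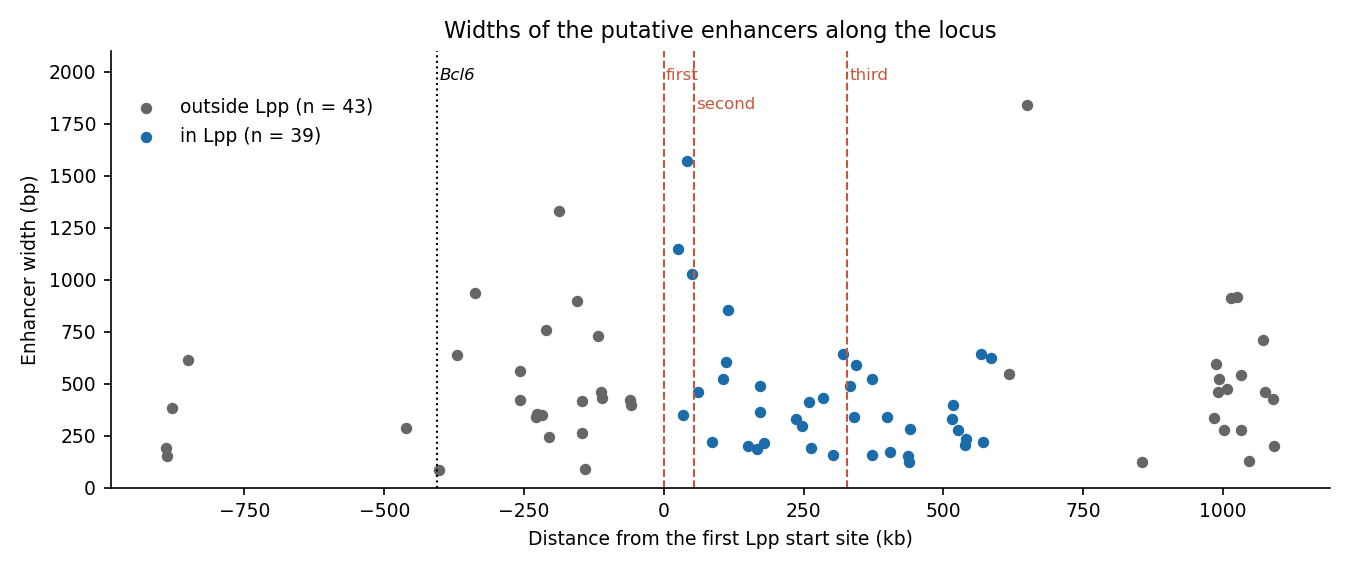
Width of each putative enhancer in bp against its distance from the first Lpp start site in kb, blue for the 39 in Lpp and grey for the 43 elsewhere. Dashed lines are the 3 coding starts of Lpp and the dotted line is the Bcl6 start. The 3 blue points above 1000 bp lie between the first and the second start, and points beyond the second start stay at or under 854 bp within Lpp.

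The distance to the promoter peaks differed between the 2 genes. From its centre to the nearer of the Lpp peaks p08 and p09, an enhancer lay at a median of 302.3 kb, with quartiles of 144.7 and 585.5 kb. To the Bcl6 peak p06 the median was 656.7 kb, with quartiles of 366.1 and 965.0 kb. Within 10, 50, 100 and 200 kb of an Lpp peak there were 2, 7, 12 and 26 enhancers, and of the Bcl6 peak 1, 2, 4 and 11. By distance alone, 67 of 82 were closer to an Lpp peak and 15 to the Bcl6 peak. The Lpp peaks lie near the middle of the interval and the Bcl6 peak nearer to one end, which favours Lpp in these counts and medians. The share of all bases closer to each gene was not computed, so the counts are no preference of the enhancers. The enhancer nearest to an Lpp peak was e29, at 4803 bp from p09, and the one nearest to the Bcl6 peak was e06, at 1764 bp from p06. The latter is the narrowest of the locus, 85 bp, and its sequence above holds the letters TTCNNNGAA once. With start sites in place of peaks, 34 enhancers were within 100 kb of Lpp rather than 12, because the third start and the start of Lpp-206 then count. When every peak counted, whatever its gene, enhancers of the locus had a median of 140.7 kb to the closest one, beside 38.0 kb for the whole list.

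The gap between the 2 genes held 20 enhancers, 10 closer to the Bcl6 peak and 10 closer to the Lpp peak. Of these, 18 lay inside an annotated noncoding transcript, 17 of them in AC169509.1, a transcribed pseudogene of 259.7 kb on the minus strand, and none of the noncoding genes wholly inside the gap had a peak within 1 kb of a start. The only peak counted in the gap was p07, next to the Bcl6 start. The 17 enhancers from e09 to e25 stood between 24136050 and 24335174, and the 82.4 kb from there to the first enhancer of Lpp intron 1 held the promoter peak p08 and no enhancer. On the Bcl6 side, e06, e07 and e08 lay at 1764, 33877 and 67061 bp from p06.

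To describe the spacing, the bases between neighbouring enhancers were counted. The interval was chosen by its number of enhancers, so shorter gaps and a higher share near another follow from that choice and are no separate trait. The median gap was 9.12 kb (quartiles 4.08 and 26.2 kb) over 81 gaps, and 18.9 kb (5.07 and 61.2 kb) over all enhancers. Gaps under 1 kb made up 13.6% in the locus and 14.1% in the whole list, and gaps under 200 bp 8.64% and 5.56%. There were 68 of 82 enhancers (82.9%) within 12500 bp of another, and 64.3% over the whole list. In Lpp it was 35 of 39, in the gap toward Bcl6 16 of 20, and at and beyond Tprg 14 of 15. A total of 7 neighbouring pairs stood under 200 bp apart, from 55 to 170 bp, 4 of them in the gap toward Bcl6 (e09 and e10, e11 and e12, e18 and e19, e22 and e23) and 1 in Lpp, e54 and e55 beside Mir28a.

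**Figure D5:**
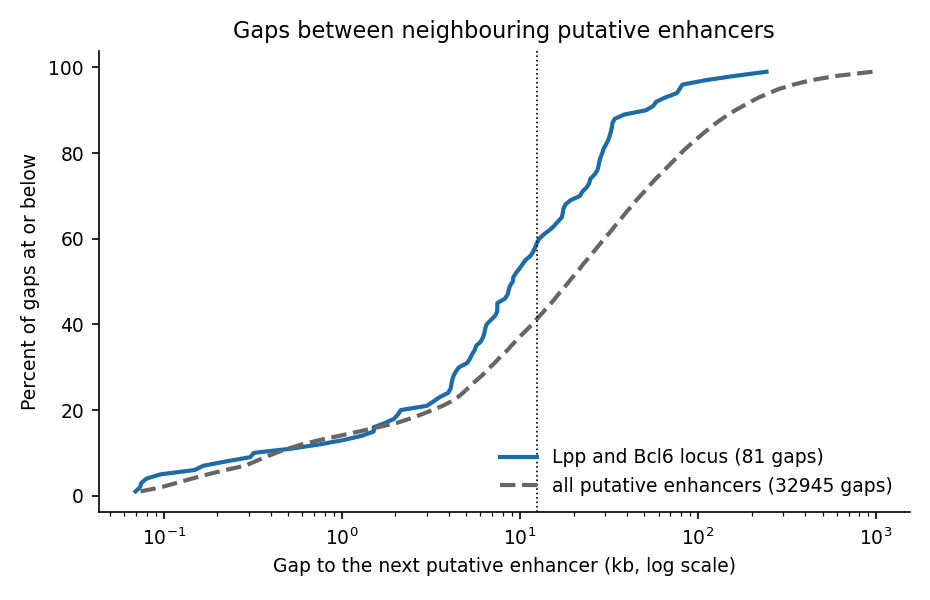
Percent of gaps at or below a length, against the gap from a putative enhancer to the next in kb (log scale), for the 81 gaps of the locus (solid) and 32945 gaps of the whole list (dashed). The dotted line marks 12500 bp. The curves cross at short gaps and lie apart at longer ones, with medians of 9.12 and 18.9 kb. Shorter gaps go with the choice of an interval rich in enhancers.

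Joined wherever the gap was at most 12500 bp, the enhancers formed 34 clusters, 14 of them single enhancers and 13 with 3 or more. The largest, e68 to e77, had 10 enhancers over 50.0 kb (25376949 to 25426963) and lay not in Lpp but in the second part of Tprg and beyond its end. Of 19350 clusters in the genome, 36 had as many or more, and large clusters too go with the choice of an interval rich in enhancers. In Lpp the largest cluster had 5, e26 to e30, over 37.4 kb (24417541 to 24454945), and it enclosed the second start with its 3 peaks. Another cluster of 5, e11 to e15, lay in the gap toward Bcl6 over 23.1 kb. The 39 enhancers of Lpp thus came as 15 groups of 1 to 5 rather than as 1 block. The longest gap, 388.5 kb (23543650 to 23932143), ran from e04 in Rtp4 to e05 on the start of Rtp2. The next were 205.8 kb and 127.6 kb on both sides of e67 between Lpp and Tprg, and the longest within Lpp was 75.4 kb, from e56 in intron 8 to e57 in intron 10, across the empty intron 9.

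Shared bases between putative enhancers and H3K4me3 peaks were counted in an interval of 14 peaks, which limits how many enhancers can meet one. Of these peaks, 1 shared a base with an enhancer, near the 10.3% of all peaks. A single enhancer shared a base with a peak, against 7.52% of all enhancers. This pair was e66, the widest enhancer, and p13 (25042340 to 25042576), which lies wholly inside it, downstream of Lpp. Peak p12 in Lpp intron 3 lay 7241 bp from the nearest enhancer. Although the definition of the list left out promoters, 2 enhancers were centred within 1 kb of a GENCODE start, e03 at 405 bp from the pseudogene Gm49514 and e05 at 106 bp from an Rtp2 start.

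In sequence, the enhancers were close to the whole list in GC content and lower in repeats. Their median GC content was 47.8% (quartiles 45.8 and 50.5%), and over all enhancers 48.2% (46.0 and 50.9%), while the interval itself had 41.9%. Their CpG ratio was 0.171, against 0.195 over all enhancers. Repeats made up 8.76% of an enhancer on average, 15.2% over all enhancers and 22.9% of the interval. Letters of 6 motifs were searched on both strands of each whole enhancer, and the percent in parentheses is that of all 32965 enhancers with a match. AP-1 (TGANTCA) was held by 25 of 82 enhancers (30.2%), TEAD (GGAATG), the partner of YAP and TAZ, by 37 (32.3%), RUNX (TGTGGT) by 28 (35.9%), and the E-box CAGCTG by 31 (30.5%). The BCL6 and STAT letters TTCNNNGAA were held by 12 (15.9%) and the ETS letters CCGGAAG by 1 (3.15%). The letters GAA occur in the TEAD, ETS and BCL6 motifs, so that matches can overlap, and a match is a description of the sequence and not a bound site.

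For TEAD the locus had the higher share, 45.1% against 32.3%, and for the E-box 37.8% against 30.5%. Within 300 bp around the centre these were 24.4% against 22.5% for TEAD and 28.0% against 20.5% for the E-box. That window adds bases outside narrower enhancers and leaves out parts of wider ones, so it is another region and no correction for width. Of the 25 enhancers with AP-1 letters, 12 were in Lpp, 8 in the gap toward Bcl6 and 3 at and beyond Tprg. The highest number of TEAD matches in 1 enhancer was 4, in e08 (24056284 to 24057218), which lies 67061 bp upstream of the Bcl6 peak. The TTCNNNGAA letters occurred in 5 enhancers of Lpp and in 4 of the gap, e06 among the latter.

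Compared with the other 2 enhancer-rich loci taken over 2 Mb, the share of enhancers in genes was higher here. Of its 82 enhancers, 52 (63.4%) were centred in a protein-coding gene, beside 51.8% of all enhancers, 71.7% in the 2 Mb before the locus and 53.6% in the 2 Mb behind it. At the locus of Thbs1 and Spred1 on chromosome 2 it was 18 of 108 (16.7%), and at that of Ubash3b and Sorl1 on chromosome 9 it was 13 of 80 (16.2%). The share within 12500 bp of another was 82.9% here, 85.2% on chromosome 2 and 78.8% on chromosome 9. Enhancers that shared a base with a peak numbered 1 here, 8 on chromosome 2 and 10 on chromosome 9. The peaks that they could meet numbered 14 here, 28 on chromosome 2 and 27 on chromosome 9. All 3 loci were chosen by their enhancer counts and have no replicates, so these differences were not tested.

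Among all protein-coding genes, Lpp ranked 5 by enhancers in the gene body, level with Dnm3 at 39. Above them were Gm20388 with 128 (a model of 4435 kb), Pde4d with 68, Fgfr2 with 65 (its model spans 2961 kb) and Foxp1 with 46. Since long genes can hold more, the density was compared over the 2492 genes of at least 100 kb, where Lpp, at 6.51 per 100 kb, ranked 147 and the median was 1.36. Foxp1, of nearly the same length as Lpp (597.4 and 599.1 kb), had 7.70 per 100 kb. Lpp lies in a window chosen by its number of enhancers, so both of its ranks reflect that choice and are no finding.

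Genes whose products work with LPP or BCL6 were then listed. All 13 genes of the zyxin family and of LPP partners had a peak at a start, beside 59.1% of all coding genes. The widest peak of each had a median of 2246 bp, from 1236 bp in Scrib, a polarity scaffold, to 5061 bp in Ajuba. Over the 12966 coding genes with a peak this median was 1255 bp. Zyx, the founding member of the family, had 5 peaks up to 2529 bp wide and 0 enhancers in a gene of 10.6 kb. Vasp, which LPP binds, had a peak of 3417 bp, and Actn1 and Actn4, the alpha-actinins, had 3996 and 3400 bp. Of the 13 genes, 8 held enhancers, beside 24.7% of all coding genes. They held 35 in all, and 21 of these lay in Palld (palladin, an actin-bundling protein), the longest of them. Lpp held 39, but at 599.1 kb it is longer than each of the 13. Its window was also chosen by the number of enhancers, so this is no trait of Lpp within its family.

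All 6 BCL6 corepressor genes examined had a peak too, beside the same 59.1% of all coding genes. Their widest peaks ran from 1569 bp in Mta3 to 4424 bp in Bcor. Enhancers lay in 5 of the 6, again beside 24.7% of all coding genes, with 10 in Bcor and 0 in Bcl6 itself. Of the 4 relatives of BCL6, all had a peak, again beside 59.1%. Those of Bcl6b (401 bp) and of Zbtb16 (880 bp) were narrow beside Patz1 (4828 bp) and Zbtb17 (1844 bp). The lists are short, their members were taken for their known roles, and a peak says that the start was marked in some library, not how much RNA the gene made.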

How the data were processed

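Chromatin of iMEF cells was analysed by H3K4me3 ChIP-seq in 12 libraries with 2 inputs. Per the methods, the authors trimmed reads (Trim Galore), aligned them to mm10 (BWA), merged replicates (Picard) and called narrow peaks (MACS), with versions not given in the sources used here. The deposited lists used here hold positions only, so the planned count test could not be run, and changes between time points were not analysed here. Starts were taken to count from 0 for peaks and from 1 for enhancers, and were rewritten to count from 1.

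Regions were assigned by their centre to GENCODE M21 models, and a gene's peaks were those with a base within 1 kb of a start. Percentages over all regions or genes are descriptions with no test. Base composition stood in for CpG islands. Functions were checked on simulated regions. Python 3.11.15, NumPy 2.4.6, pandas 2.3.3, pysam 0.24.0 and Matplotlib 3.10.9 were used. The locus, gene lists, motifs and alternatives were chosen with earlier results of these data known, and the fibroblast and B cell genes after the files were seen. Genes named were Lpp, Bcl6, their coding neighbours, the listed family members and partners, and the 5 genes with the most enhancers. Enhancers named by rule were the widest 3, the nearest to each promoter peak, those on a peak, and the ends of the longest gap and the largest cluster. Others were named after their values were seen. Some listed genes are not reported here.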

Additional observations from a re-analysis of the deposited data

How the results depend on the processing

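Of 46 values under alternatives, 31 stayed within 1.5 times of a count or within the 95% Wilson interval of a share, and 15 moved. The Wilson interval takes enhancers as independent draws, which neighbours are not, so it served as a yardstick and measures no error. Some of the 31 could not move. The coding transcript with the most exons is the main one, Lpp-201, and the widest Bcl6 peak is its only one. The 1 Mb window from 24 to 25 Mb held 5 peaks in place of 14 and 58 enhancers in place of 82, as counts not scaled to its shorter length. Of the 14 peaks, 8 were at least 500 bp wide. Joining enhancers within 5 kb gave a largest cluster of 4 and 56.1% near another, and joining within 25 kb gave 90.2%. With enhancers of at least 300 bp only, there were 13 clusters of 2 or more in place of 20, a largest cluster of 5, and 72.2% near another. With start sites in place of peaks, 34 enhancers were within 100 kb of Lpp. A window of 3 kb gave 4 Lpp peaks and 2 Bcl6 peaks. Requiring 50% of the enhancer to be covered left 0 overlaps with a peak. In 300 bp around the centre, the TEAD letters were held by 24.4%, the E-box by 28.0% and the ETS letters by 0%. RefSeq models, any overlap in place of the centre and masked repeats moved none of the values computed with them. No paired analysis was possible because positions carry no value of any replicate.

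The lists give no depth, no signal and no error, and the authors' TSS set can differ from the one used here. Which cells, times or libraries carried a peak is not in these lists, and the gene an enhancer acts on was not tested.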

Other observations

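Some values at this locus lie outside the comparisons above. Tprg, the gene behind Lpp, had 0 H3K4me3 peaks at its starts and the nearest peak was 226.8 kb away, yet it and the stretch beyond it held 15 of the 82 enhancers and the largest cluster, of 10. The group at Masp1 runs past the edge of the interval, since the whole gene held 10 enhancers over 71.4 kb (14.0 per 100 kb), of which 3 were counted inside. Of the 28 enhancers in the 2 Mb behind the locus, 7 lay in Trp63, which encodes a relative of p53, and Cldn1 (claudin 1, a tight junction protein of epithelia), farther on, had a peak of 470 bp and 0 enhancers.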
